A study of Mus musculus with 14 samples.

Results

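Periostin (*Postn*), tenascin C (*Tnc*), tenascin XB (*Tnxb*), thrombospondins 1 to 4 (*Thbs1*, *Thbs2*, *Thbs3* and *Thbs4*), *Sparc*, fibronectin (*Fn1*) and versican (*Vcan*) are 10 genes of the extracellular matrix, taken by symbol from the 24062 genes of a bulk RNA-seq count table. All 10 were in the table, and all 10 passed the expression filter in each of 4 comparisons. The libraries came from mice of a mixed C57BL/6, I-129 and FVBN background at 9 months of age, without drug treatment. The 3 controls were dorsal root ganglia (DRGs) with nerves from Nf1fl/fl mice, which carry the floxed *Nf1* alleles without Cre; this is the genotype label, while the series title calls the controls wild type. The 11 plexiform neurofibromas (PNs) were from DhhCre;Nf1fl/fl mice, in which Cre is driven by the *Dhh* promoter in the Schwann cell (SC) lineage, so that the other cells of a tumor keep *Nf1*. A PN was slow-growing (n = 5) where its volume on MRI changed by less than 5 mm3 between 7 and 9 months, and fast-growing (n = 6) where it grew by more than 35 mm3. Each PN library is named here by its mouse number, and the controls by their labels, DRG3, DRG4 and DRG5. The question was how the level of these matrix genes differed between control tissue and PNs, and between PNs of unlike growth.

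Matricellular proteins are secreted into the matrix but act mainly on cells, through integrins and other receptors, and on growth factors, enzymes and collagen fibrils. They are abundant in development and after injury, and in adult peripheral nerve several of them rise when an axon is cut. Fibronectin and versican are structural partners of this group: fibronectin forms fibrils to which cells and tenascin C attach, and versican is a large proteoglycan that binds hyaluronan. Neurofibromas are rich in matrix made by fibroblasts and by SCs.

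RefSeq (GRCm38.p6) gave the sequence before the start site for 8 of the 10 genes. The 100 bases before the start are shown for the 3 genes with the largest rise in fast-growing PNs (*Thbs2*, *Postn* and *Vcan*) and for *Tnxb*, which had the smallest fitted difference in that comparison. They run 5′ to 3′ on the strand of the gene, and capitals mark a match, on either strand, to TATAAA (the core of a TATA box), TGANTCA (an AP-1 type motif) or CAGAC (a SMAD type motif, read as GTCTG on the other strand). No match of one motif overlapped a match of another in these stretches.
Thbs2, chr17:14694263-14694362, minus strand: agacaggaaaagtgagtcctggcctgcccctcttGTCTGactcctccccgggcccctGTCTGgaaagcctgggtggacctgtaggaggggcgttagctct
Postn, chr3:54361007-54361106, plus strand: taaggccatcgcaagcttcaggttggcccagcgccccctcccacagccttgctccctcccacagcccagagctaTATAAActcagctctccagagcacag
Vcan, chr13:89742513-89742612, minus strand: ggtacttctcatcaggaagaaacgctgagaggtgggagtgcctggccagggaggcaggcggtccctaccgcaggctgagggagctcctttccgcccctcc
Tnxb, chr17:34670435-34670534, plus strand: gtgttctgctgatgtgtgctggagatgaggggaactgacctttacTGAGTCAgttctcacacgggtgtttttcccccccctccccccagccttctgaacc

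The *Postn* stretch held TATAAA from base -26, counted back from the start site at 54361107, the nearer of 2 annotated starts to the gene's first exon in GENCODE. The *Thbs2* stretch held CAGAC in reverse at -66 and -43. *Tnxb* held TGANTCA at -55, and the *Vcan* stretch held none of the 3. Over the same 100 bases of 32851 RefSeq promoters, 5.56% held TATAAA, 2.73% held TGANTCA and 18.8% held CAGAC. No motif was common to the 3 stretches of risen genes shown here, which says only that these letters are not in each window.

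The libraries held between 9596773 and 17594164 counts on genes. The level of a gene is given as CPM, its counts relative to the library total, scaled by edgeR's TMM factors over all 14 libraries. *Nf1*, the targeted gene, was read at 129.03 to 227.49 CPM in controls, 225.39 to 293.67 CPM in slow-growing PNs and 224.55 to 275.66 CPM in fast-growing PNs. Over all PNs its log2 fold change against controls was 0.54 ± 0.16 (SE, edgeR adjusted p = 0.0215). It was not called in slow-growing (edgeR adjusted p = 0.127) or fast-growing PNs (edgeR adjusted p = 0.0718) alone. Counts over the whole gene do not separate the deleted exons and include cells without Cre, so they do not check the labels. SC markers (6 genes such as *Sox10* and *S100b*) summed to 1151 to 3292 CPM in controls, 3234 to 5274 in slow-growing and 3659 to 4507 in fast-growing PNs. Sensory neuron markers were present in every library, but at 22.3 CPM in fast-growing PN 1191, against 1905 to 11625 CPM in the other 10 PNs. Skeletal muscle and fat markers were highest in controls, at 3202 to 13001 and 1852 to 2584 CPM. In bulk tissue, more cells of a type and more RNA per cell cannot be told apart.

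Of the 10 genes, 6 rose in fast-growing PNs and none passed the test in slow-growing PNs. Relative to controls, *Thbs2* was 16.4-fold, *Postn* 9.28-fold and *Vcan* 7.0-fold higher in fast-growing PNs, and *Fn1*, *Thbs4* and *Sparc* were 3.57-, 3.56- and 3.37-fold higher. The test was edgeR's quasi-likelihood test, called at a Benjamini-Hochberg adjusted p under 0.05 over all genes tested. By this rule 14.8% of 16037 genes were higher in fast-growing PNs, against 6 of the 10 here. The median log2 fold change of the 10 was 1.79, and that of all genes was 0.0189. In 5 of the 10 (*Postn*, *Thbs2*, *Sparc*, *Fn1* and *Vcan*) every fast-growing PN lay above every control, which was true of 17.8% of all genes.

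In slow-growing PNs, 0 of the 10 were called by edgeR, where 4.12% of 15714 genes were called higher and 7.13% lower. Only *Vcan* had an unadjusted p under 0.05 in that comparison, DESeq2 called 1 (*Vcan*) and limma-voom called 0. The fitted difference was positive for 8 of the 10 and negative for *Tnc* and *Thbs1*, but 4 of these signs turned when 1 library was left out. *Postn* then ran from -0.49 (without slow-growing PN 1198A) to 0.77, *Fn1* from -0.13 (without 1198A) to 0.50, *Thbs3* from -0.0078 (without control DRG4) to 0.48, and *Thbs1* from -0.86 to 0.11 (positive without control DRG3, 1202 or 1203). The median of the 10 was 0.37 on the log2 scale against 0.0378 for all genes.

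With all 11 PNs as 1 group, 3 of the 10 (*Vcan*, *Sparc* and *Thbs2*) were higher than in controls, where edgeR called 12.9% of 16283 genes higher. For none of the 10 did every PN lie above every control, which held for 8.51% of genes, and for 8 of the 10 at least 1 slow-growing PN lay below all 3 controls. Without control DRG4, and likewise without control DRG5, 0 of the 10 were called, and without slow-growing PN 1203, 5 were. In those fits edgeR called 2476 of 16580, 2061 of 16540 and 4779 of 16261 genes in all. With muscle and fat marker scores as covariates 0 of the 10 and 562 of 16283 genes were called, and the fitted difference of 5 of the 10 turned negative: *Thbs2* to -0.46 (edgeR adjusted p = 0.881), *Postn* to -1.22, *Fn1* to -0.65, *Thbs1* to -1.52 and *Tnc* to -2.26 on the log2 scale.

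Between fast- and slow-growing PNs, 9 of the 10 had a higher fitted level in fast-growing PNs. By edgeR 0 of the 10 were called, where 0.802% of 15465 genes were called higher. In all, 6 (*Postn*, *Tnc*, *Thbs2*, *Sparc*, *Fn1* and *Vcan*) had an unadjusted p under 0.05, and DESeq2 called 5 (and 1592 of all 15465 genes, against 196 by edgeR) and limma-voom 0. For *Postn*, *Tnc* and *Sparc* every fast-growing PN lay above every slow-growing PN, a separation seen in 2.13% of all genes. The lowest adjusted p was that of *Postn*, at 0.0596 by edgeR. Leaving out slow-growing PN 1198A raised the count from 0 to 5 (*Postn*, *Tnc*, *Thbs1*, *Thbs2* and *Vcan*), with 1194 of 15611 genes called in all. Leaving out slow-growing PN 1203 raised it to 1 (*Postn*), with 578 of 15637 genes called. With both left out, a setting chosen after seeing the data, 4 of the 10 and 1106 of 15901 genes were called.

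**Figure D1:**
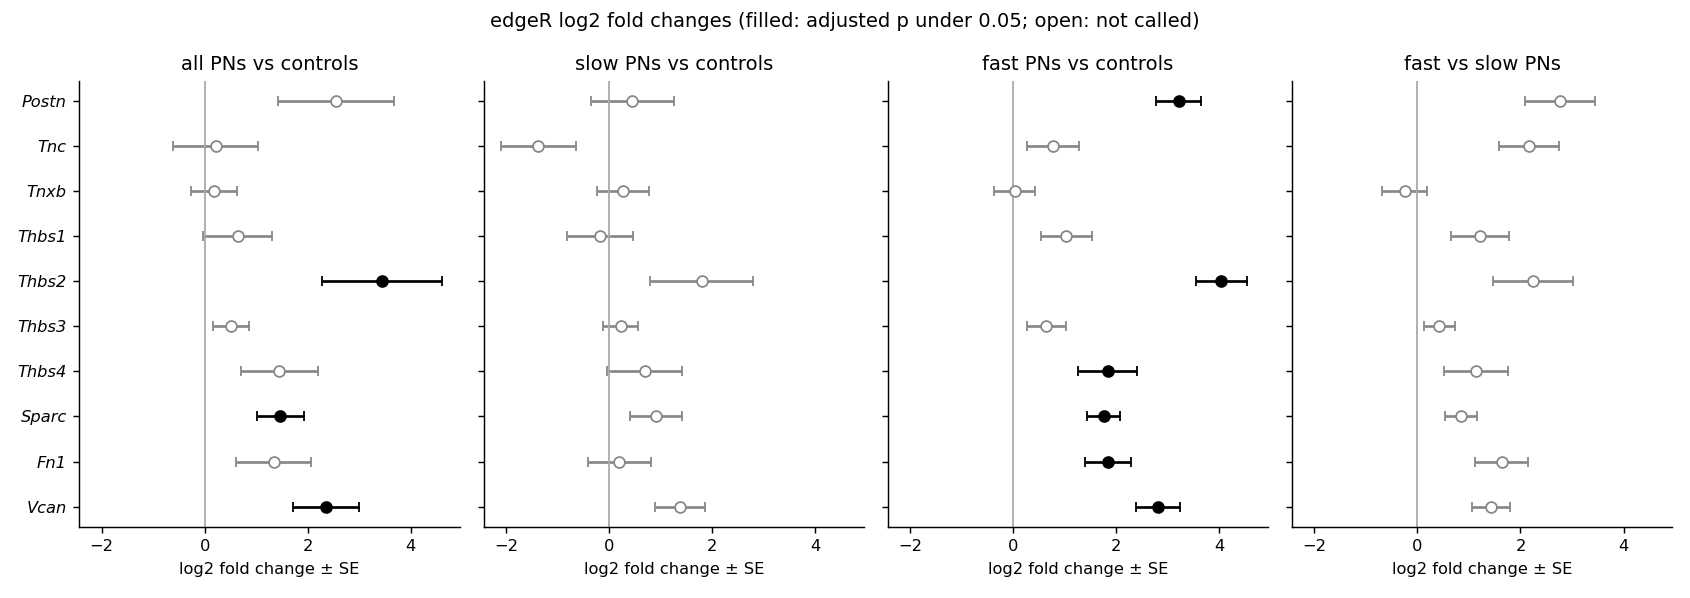
Log2 fold change (x axis, edgeR, with bars of 1 SE) of the 10 genes (y axis) in 4 comparisons, with filled points for genes called at an adjusted p under 0.05. Filled points number 3 for all PNs, 0 for slow-growing PNs and 6 for fast-growing PNs against controls, and 0 for fast- against slow-growing PNs; slow- and fast-growing PNs share the same 3 controls.

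*Postn* encodes periostin, a fasciclin-domain protein that binds integrins and collagen and that fibroblasts and injured nerve produce. The gene lies at chr3:54361109-54391037 on the plus strand (GENCODE M21, GRCm38). Its level was 126.65, 94.1 and 114.55 CPM in controls DRG3, DRG4 and DRG5, and 109.0, 464.6, 59.3, 23.1 and 136.5 CPM in slow-growing PNs 1079, 1198A, 1202, 1203 and 1206. In the 6 fast-growing PNs it ran from 689.6 to 2206 CPM with a median of 908 CPM. The controls were thus close together, the slow-growing PNs spread over 20.1-fold on both sides of them, and every fast-growing PN lay above both groups, with the lowest at 689.6 CPM against 464.6 CPM in slow-growing PN 1198A. Relative to controls the log2 fold change was 3.21 ± 0.44 (SE) in fast-growing PNs (edgeR adjusted p = 0.000629) and 0.45 ± 0.80 in slow-growing PNs (edgeR adjusted p = 0.716). Over all 11 PNs it was 2.55 ± 1.12 (edgeR adjusted p = 0.108), and -1.22 ± 1.74 with muscle and fat scores as covariates (edgeR adjusted p = 0.696). Between fast- and slow-growing PNs it was 2.77 ± 0.68 (edgeR adjusted p = 0.0596), which passed the threshold in 2 of the 7 other settings run on all libraries and in 2 of 11 fits that left out 1 library. The call against controls in fast-growing PNs was kept in all 9 fits that left out 1 library. It was lost with muscle and fat scores as covariates, where the difference was 4.01 (edgeR adjusted p = 0.490).

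*Tnc* and *Tnxb* are the tenascins of the list. Tenascin C is made at sites of growth and repair and lowers the adhesion of cells to fibronectin, whereas tenascin XB is a constitutive protein of loose connective tissue that binds collagen fibrils. *Tnc* (chr4:63959785-64047015, minus strand) was at 26.7, 50.3 and 95.2 CPM in DRG3, DRG4 and DRG5. It was at 10.9, 45.5, 17.7, 3.57 and 37.6 CPM in slow-growing PNs 1079, 1198A, 1202, 1203 and 1206, and at 54.7 to 206.7 CPM, median 83.4 CPM, in fast-growing PNs. The controls lay between the 2 kinds of PN and overlapped both, while the PN groups did not overlap each other. *Tnc* was thus 4.50-fold higher in fast- than in slow-growing PNs (log2 fold change 2.17 ± 0.59, edgeR adjusted p = 0.0734), with values of -1.37 ± 0.72 in slow-growing PNs (edgeR adjusted p = 0.231) and 0.78 ± 0.50 in fast-growing PNs (edgeR adjusted p = 0.275) against controls. None of these passed the threshold.

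With muscle and fat scores as covariates, the difference of *Tnc* from controls was 1.56 ± 1.81 in fast-growing PNs (edgeR adjusted p = 0.883), -0.60 ± 1.09 in slow-growing PNs (edgeR adjusted p = 0.980) and -2.26 ± 1.52 over all PNs (edgeR adjusted p = 0.406). In the fit of the PNs alone with the same scores, fast- and slow-growing PNs differed by 3.49 ± 0.54 (edgeR adjusted p = 0.187), with 0 of 15465 genes called.

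*Tnxb* (chr17:34670535-34719815, plus strand) was at 147.2, 88.2 and 83.2 CPM in the controls and at 130.2, 192.2, 114.8, 33.7 and 195.5 CPM in slow-growing PNs 1079, 1198A, 1202, 1203 and 1206. In fast-growing PNs it ran from 57.3 to 210.7 CPM with a median of 103 CPM. All 3 groups overlapped, and the largest log2 fold change in the 4 comparisons was 0.28, in slow-growing PNs. Fast-growing PNs differed from controls by 0.032 ± 0.40 (edgeR adjusted p = 0.963) and from slow-growing PNs by -0.25 ± 0.43 (edgeR adjusted p = 0.758). Per kb of longest transcript, the ratio of *Tnc* to *Tnxb* was 0.311, 0.979 and 1.97 in the controls. It was 0.144 to 0.407 in the 5 slow-growing PNs and 0.844 to 2.27 in the 6 fast-growing PNs. The balance of the 2 tenascins within a library thus separated slow- from fast-growing PNs as *Tnc* alone did, a description without a test.

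**Figure D2:**
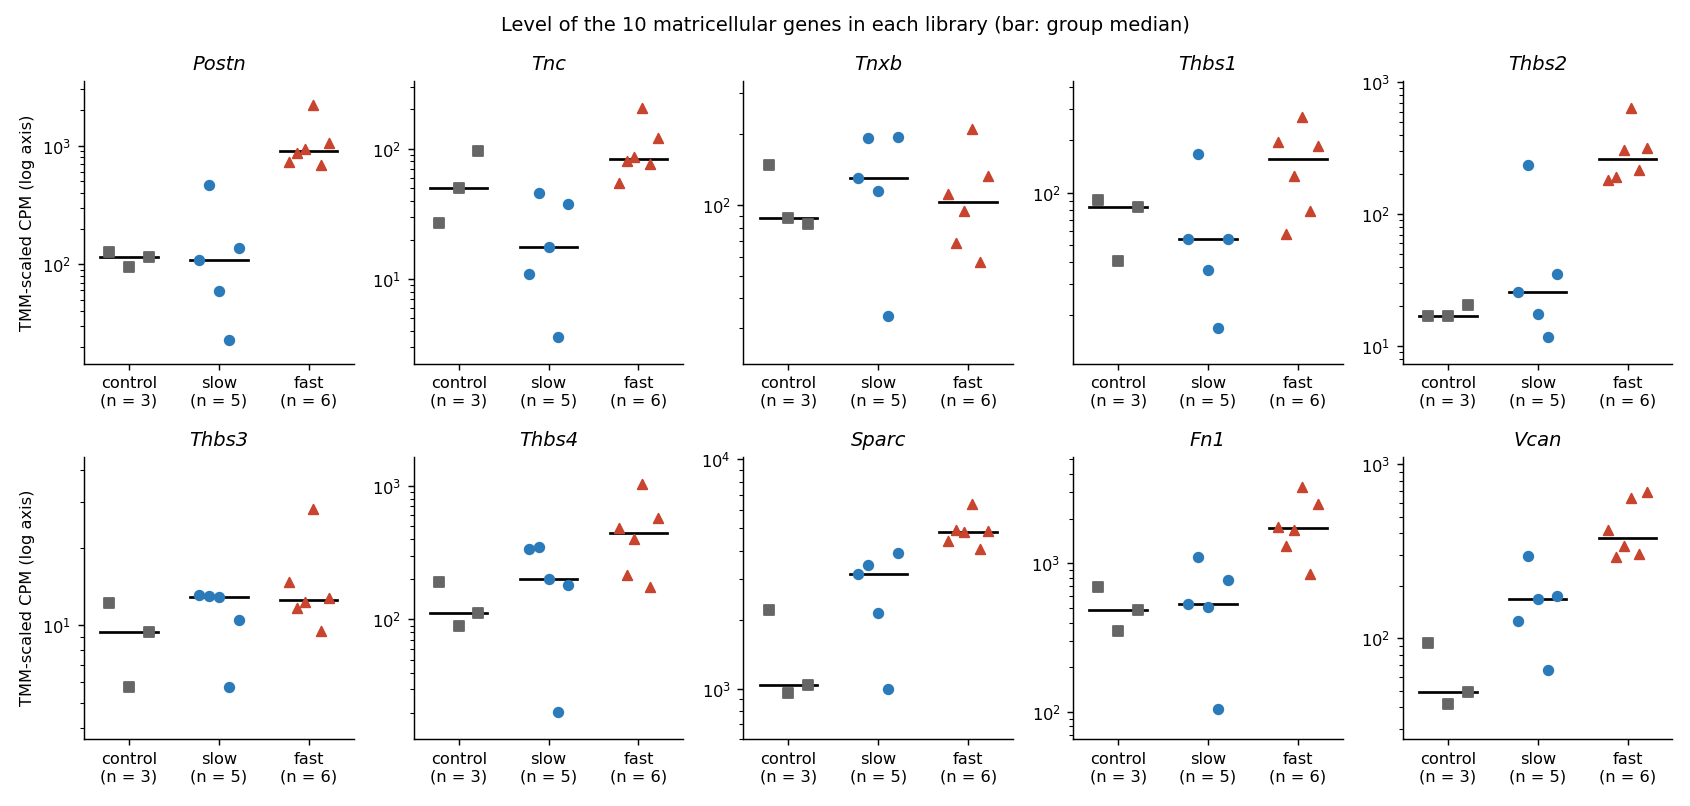
Level of each of the 10 genes (TMM-scaled CPM, log axis, 1 panel per gene) in 3 controls (squares), 5 slow-growing PNs (circles) and 6 fast-growing PNs (triangles), with 1 point per library and a bar at the group median. *Postn*, *Thbs2* and *Vcan* sit higher in fast-growing PNs than in all controls, *Tnxb* overlaps in all groups, and slow-growing PN 1203 is the lowest slow-growing point in every panel.

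The 4 thrombospondins fall into trimeric proteins with an anti-angiogenic repeat (thrombospondins 1 and 2, which bind CD36 and CD47 and can affect TGF-beta activation or clearance of proteases) and pentameric ones without it (thrombospondins 3 and 4, the latter known from tendon, heart and injured sensory neurons). *Thbs2* (chr17:14665500-14694235, minus strand) had 17.0, 16.8 and 20.3 CPM in DRG3, DRG4 and DRG5. Slow-growing PNs 1079, 1198A, 1202, 1203 and 1206 had 25.7, 235.5, 17.6, 11.7 and 34.9 CPM, and fast-growing PNs had 181.1 to 640 CPM with a median of 263 CPM. The controls differed by only 1.21-fold, 4 of the 5 slow-growing PNs were at 34.9 CPM or lower, and slow-growing PN 1198A lay inside the range of the fast-growing PNs. The rise in fast-growing PNs was the largest of the 10 genes, at 4.04 ± 0.50 (edgeR adjusted p = 0.000345), and was called in all 9 fits that left out 1 library. With muscle and fat scores as covariates this difference was 4.38 and was not called (edgeR adjusted p = 0.471). In slow-growing PNs, without these scores, the difference was 1.80 ± 1.0 (edgeR adjusted p = 0.252) with 1198A and 0.27 without 1198A (edgeR adjusted p = 0.627). Against slow-growing PNs, fast-growing PNs were higher by 2.24 ± 0.77 (edgeR adjusted p = 0.132), and by 3.78 without 1198A (edgeR adjusted p = 0.00321).

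*Thbs1* (chr2:118111876-118127133, plus strand) did not pass the test in any comparison. It was at 91.1, 40.5 and 82.2 CPM in controls and at 54.1, 165.4, 36.2, 16.8 and 54.7 CPM in the slow-growing PNs in the order above. Fast-growing PNs had 58.3 to 271.1 CPM, with a median of 155 CPM, and 4 of the 6 lay above every control. The log2 fold change was 1.03 ± 0.50 against controls (edgeR adjusted p = 0.151) and 1.21 ± 0.56 against slow-growing PNs (edgeR adjusted p = 0.250). Per kb, *Thbs2* was below *Thbs1* in all 3 controls (ratio 0.185 to 0.411) and in 4 of 5 slow-growing PNs (0.470 to 0.690, with 1.41 in 1198A). In 5 of 6 fast-growing PNs it was above *Thbs1* (1.69 to 3.27), with 0.922 in 1053. Thus the transcript with the higher level per kb in this pair differed between most fast-growing PNs and the controls.

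*Thbs3* (chr3:89215180-89226837, plus strand) had the lowest mean of the 10 per kb in each group, although *Tnc* was below it in 3 of the 5 slow-growing PNs and *Thbs2* in control DRG3 and slow-growing PN 1202. It was at 12.2, 5.77 and 9.38 CPM in controls, 10.5 to 13.1 CPM in 4 slow-growing PNs with 5.77 CPM in 1203, and 9.5 to 28.2 CPM, median 12.6 CPM, in fast-growing PNs. The groups overlapped, and fast-growing PNs differed from controls by 0.65 ± 0.38 (edgeR adjusted p = 0.230). Exons of *Mtx1* overlap it on the other strand, as do exons of other genes for *Tnc*, *Tnxb*, *Thbs1* and *Fn1*, and since the counting is not stated to use strand, reads of such pairs may not be told apart. *Thbs4* (chr13:92751590-92794818, minus strand) was at 189.5, 89.0 and 111.5 CPM in controls and at 333.6, 347.1, 200.6, 20.2 and 182.1 CPM in slow-growing PNs. In fast-growing PNs it ran from 175.1 to 1030 CPM with a median of 441 CPM, and 5 of the 6 lay above every control. The difference from controls was 1.83 ± 0.58 (edgeR adjusted p = 0.0373), a call lost in 4 of 9 fits that left out 1 library (control DRG4, control DRG5 or fast-growing PN 1053 or 1216, with edgeR adjusted p up to 0.135). Tendon markers, among which *Thbs4* is not listed, summed to 26.8 to 110 CPM in controls and 9.07 to 23.3 CPM in fast-growing PNs. Of the 4 tested, 1 was called lower in fast-growing PNs, where 16.7% of all genes were called lower.

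*Sparc* encodes osteonectin, a collagen-binding protein that assists collagen fibril assembly. It lies at chr11:55394500-55423183 on the minus strand and was the most abundant of the 10 per kb in every group. It stood at 2209, 960 and 1039 CPM in DRG3, DRG4 and DRG5 and at 3174, 3447, 2127, 991 and 3918 CPM in slow-growing PNs 1079, 1198A, 1202, 1203 and 1206. Fast-growing PNs had 4084 to 6419 CPM with a median of 4835 CPM, above every control and every slow-growing PN. The rise against controls was 1.75 ± 0.31 in fast-growing PNs (edgeR adjusted p = 0.00256) and 1.47 ± 0.46 over all PNs (edgeR adjusted p = 0.0293). In slow-growing PNs the difference was 0.92 ± 0.50 (edgeR adjusted p = 0.241), and between the PN groups it was 0.85 ± 0.31 (edgeR adjusted p = 0.153). The spread among fast-growing PNs was small for this gene, with an SD of 16.3% of the mean (n = 6) against 38.8% to 64.7% for the other 9 genes.

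*Fn1* (chr1:71585520-71653200, minus strand), the gene of fibronectin, was at 688.65, 351.5 and 488.9 CPM in controls and at 534.7, 1108, 507.4, 104.8 and 774.4 CPM in slow-growing PNs. Fast-growing PNs had 845.3 to 3256 CPM with a median of 1719 CPM. Every fast-growing PN was above the controls, while slow-growing PNs spanned them. *Fn1* rose by 1.84 ± 0.45 in fast-growing PNs (edgeR adjusted p = 0.0120), a call lost without control DRG4 (edgeR adjusted p = 0.0570). It differed by 0.20 ± 0.61 in slow-growing PNs (edgeR adjusted p = 0.833) and by 1.64 ± 0.52 between fast- and slow-growing PNs (edgeR adjusted p = 0.106).

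*Vcan* (chr13:89655312-89742509, minus strand) had the most PNs above all controls among the 10 genes. It was at 94.2, 41.9 and 48.9 CPM in DRG3, DRG4 and DRG5 and at 125.8, 294.9, 167.2, 66.0 and 174.8 CPM in slow-growing PNs 1079, 1198A, 1202, 1203 and 1206. In fast-growing PNs it ran from 294.7 to 690.5 CPM with a median of 378 CPM. Of the 11 PNs, 10 lay above every control, the exception being slow-growing PN 1203, and 5 of 6 fast-growing PNs lay above every slow-growing PN. The log2 fold change was 2.81 ± 0.42 in fast-growing PNs (edgeR adjusted p = 0.00106), 2.36 ± 0.64 over all PNs (edgeR adjusted p = 0.0155) and 1.38 ± 0.48 in slow-growing PNs (edgeR adjusted p = 0.100). The value in slow-growing PNs passed the threshold with DESeq2, in 1 fit of all 14 libraries and without PN 1203 (1.62, edgeR adjusted p = 0.0315). The difference between the PN groups was 1.43 ± 0.37 (edgeR adjusted p = 0.0680).

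Per kb of longest transcript, *Sparc* stood alone at the top of each group, at 610 ± 304 (SD, n = 3) CPM per kb in controls, 1188 ± 510 (SD, n = 5) in slow-growing and 2139 ± 349 (SD, n = 6) in fast-growing PNs, without overlap with the next gene. *Fn1* was next in each group, at 61.3 ± 20.4, 72.9 ± 44.4 and 227 ± 104 CPM per kb. *Postn* came next in fast-growing PNs at 207 ± 108 CPM per kb, which overlapped *Fn1* and *Thbs4*, and in controls stood at 21.4 ± 3.15 CPM per kb, clear of *Thbs4* above and *Thbs1* below. *Thbs2* moved from the ninth place in controls (3.06 ± 0.338 CPM per kb) to the fifth in fast-growing PNs (52.4 ± 29.2 CPM per kb). In slow- and fast-growing PNs every gene below *Sparc* overlapped its neighbour in the order. The order of neighbours there is therefore within the spread between libraries.

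**Figure D3:**
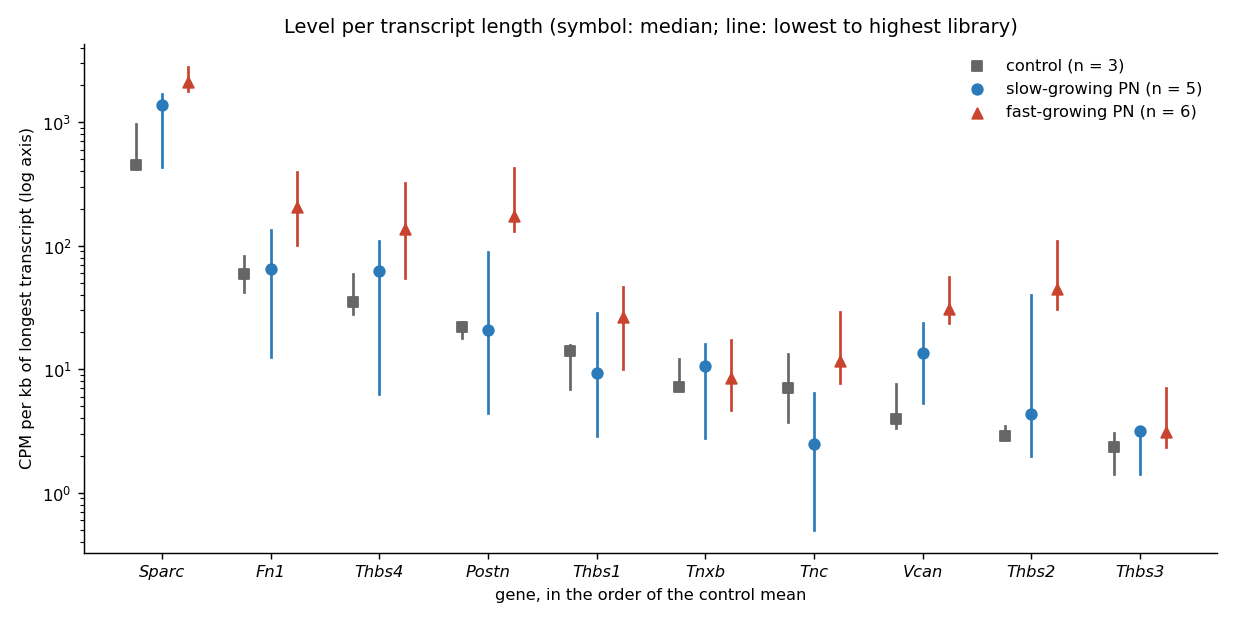
Level per kb of longest transcript (log axis) of the 10 genes, ordered by the control mean, with the median (symbol) and the lowest to highest library (line) of 3 controls, 5 slow-growing and 6 fast-growing PNs. *Sparc* lies above all other genes in each group, and the lines of *Thbs2* and *Postn* in fast-growing PNs lie clear above their control lines.

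The sum of the 10 genes per library ran from 1738 to 3603 CPM in controls, 1277 to 6313 CPM in slow-growing PNs and 6538 to 14904 CPM in fast-growing PNs. *Sparc* made up 43.1% to 77.6% of it. The lowest sum was in slow-growing PN 1203, where all 10 genes were at their lowest among slow-growing PNs. The highest was in fast-growing PN 1191, where 9 of the 10 genes were at their highest among fast-growing PNs, *Vcan* being highest in 1216. Slow-growing PN 1198A was the highest slow-growing PN for *Postn*, *Tnc*, *Thbs1*, *Thbs2*, *Thbs4*, *Fn1* and *Vcan*. The libraries at the ends of each group were thus largely shared by the 10 genes.

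Markers of some other cells differed between the groups and libraries. Fibroblast markers (8 genes such as *Pdgfra*, *Dcn* and *Col1a1*) summed to 1804 to 3475 CPM in controls, 1177 to 5212 CPM in slow-growing and 4507 to 9371 CPM in fast-growing PNs. They were lowest in slow-growing PN 1203 (1177 CPM), and highest among slow-growing PNs in 1198A (5212 CPM) and among fast-growing PNs in 1216 (9371 CPM), with 8390 CPM in 1191. By mean log2(CPM + 1) of the same genes, controls (6.62 to 7.51) and fast-growing PNs (6.78 to 8.46) overlapped, and 1191 was the highest fast-growing PN. Sensory neuron markers were highest of all libraries in 1203, at 11625 CPM. In fast-growing PNs 6 of the 8 fibroblast markers were called higher than in controls and 1 lower, where 14.8% of all genes were called higher and 16.7% lower. In its account of SC progenitor-like (SCP-like) cells the study names *Postn*, *Tnc* and *Sparc* of the 10 genes. The SCP-like markers that it names besides these (7 genes such as *Chl1*, *Gatm* and *Serpine2*) summed to 421 to 881 CPM in controls, 1201 to 2278 CPM in slow-growing and 2556 to 3674 CPM in fast-growing PNs. Library 1203, at 1624 CPM, was not the lowest of the slow-growing PNs for this list by summed CPM. By mean log2(CPM + 1) of the same genes it was the lowest, at 6.32 against 6.45 in 1202, the next lowest. Of these markers 6 of 7 were called higher in fast-growing PNs. The study chose them on tissue of this mouse model, so their direction is not independent evidence. Macrophage markers summed to 128 to 414, 44.4 to 376 and 208 to 779 CPM in the 3 groups, and platelet markers, which accompany a known source of thrombospondin 1, fell from 61.0 to 262 CPM in controls to 10.2 to 19.96 CPM in fast-growing PNs, with 5 of 5 called lower. Endothelial markers summed to 335 to 456 CPM in controls and 128 to 302 CPM in fast-growing PNs, with 4 of 6 called lower. Pericyte and smooth muscle markers summed to 645 to 847 CPM and 269 to 415 CPM, with 3 of 6 called lower and 1 higher. No list was at 0 in any group, except that *Matn3* of the bone and cartilage list had no count in any PN. The part of these cells in the differences of the 10 genes was not tested.

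Muscle and fat markers moved the other way, with 8 of 9 and 7 of 7 called lower in fast-growing PNs, against 16.7% of all genes, and 0 of 9 and 1 of 7 in slow-growing PNs, against 7.13%. Muscle markers were at 25.9 to 3136 CPM in slow-growing and 52.8 to 1927 CPM in fast-growing PNs, and fat markers at 5.04 to 1050 and 0.672 to 114 CPM, below every control in both cases. With both scores as covariates, the differences in fast-growing PNs were 4.01 ± 1.32 for *Postn*, 4.38 ± 1.39 for *Thbs2*, 1.75 ± 1.16 for *Vcan*, 1.78 ± 1.06 for *Sparc*, 1.15 ± 1.49 for *Fn1* and 1.45 ± 1.87 for *Thbs4*, and edgeR called none of the 10 and none of 16037 genes. All 6 differences stayed positive with a larger error, and those of *Vcan*, *Fn1* and *Thbs4* were smaller than the 2.81, 1.84 and 1.83 without the scores.

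**Figure D4:**
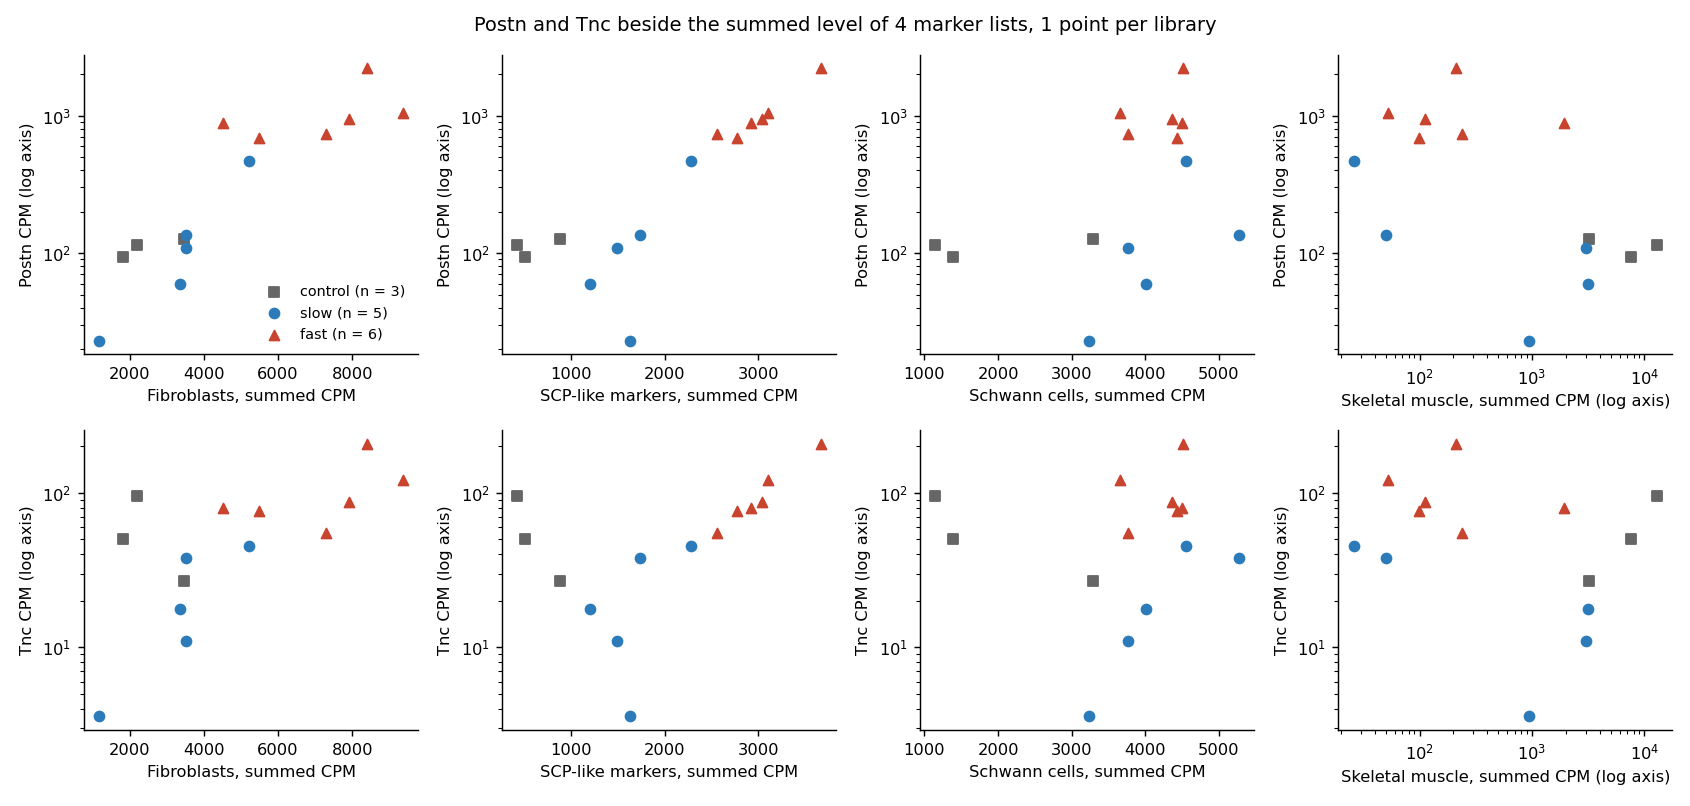
Level of *Postn* (top) and *Tnc* (bottom) in CPM on a log axis against the summed CPM of 4 marker lists, with a log axis for muscle markers only and 1 point per library in 3 controls (squares), 5 slow-growing PNs (circles) and 6 fast-growing PNs (triangles). Fast-growing PNs lie to the right of the controls for fibroblast, SCP-like and SC markers and to the left for muscle markers, and *Tnc* is as high in control DRG5 as in several fast-growing PNs.

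By likeness of log2 CPM over all 14 libraries, the 5 genes nearest to *Postn* among 16283 were *Rgs16* (Pearson r = 0.978), *Col5a2* (0.974), *Pros1* (0.974), *Aebp1* (0.971) and *Itga1* (0.971). Over the 11 PNs they were *Col5a2* (0.994), *Kirrel*, *Btc*, *Gas7* and *Itga1* (0.986). Within the 6 fast-growing PNs *Col5a2*, a chain of type V collagen, was at 0.972. *Rgs16*, *Pros1*, *Aebp1* and *Itga1* were at 0.712, 0.794, 0.690 and 0.869 in these libraries. Of the list itself, *Thbs2* came nearest to *Postn*, at place 13 over 14 libraries (0.965) and 12 over the PNs (0.981), and *Tnxb* was farthest (0.351 and 0.366). Within the 6 fast-growing PNs this order differed. There *Sparc* was nearest (0.974), *Thbs2* was at 0.945, *Tnxb* at 0.845, and *Thbs1* was farthest (0.625). *Tnc* was close to *Postn* over the 11 PNs (0.957) and less so with the controls included (0.836). The genes nearest to *Tnc* over the PNs were *Gldn* (0.972), *Hbegf*, *Plat*, *Nid1* and *Sept2* (0.967). Over all 14 libraries they were *Manba* (0.934), *Rab32*, *Ppic*, *Mob1a* and *Ifitm3* (0.927), so none was shared between the 2 sets. These correlations describe libraries that share group, tissue and scaling, and carry no p.

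Of 23 further matricellular genes, 21 were tested in PNs against controls, where 3 were called higher and 4 lower by edgeR, against 12.9% and 13.4% of all genes. Among the called genes the highest rise was *Matn2*, a matrilin of peripheral nerve, at 2.28 ± 0.53 (edgeR adjusted p = 0.00584). Next were *Fbln5*, an elastic fibre protein, at 1.23 ± 0.29, and *Sparcl1*, the closest relative of *Sparc*, at 0.97 ± 0.24. *Tnr* had a larger fitted difference, 2.66 ± 1.12, but was not called (edgeR adjusted p = 0.0937). The deepest falls were *Comp* (thrombospondin 5) at -2.49 ± 0.46 (edgeR adjusted p = 0.00143), *Wisp2* (*Ccn5*) at -2.45 ± 0.70 and *Cyr61* (*Ccn1*) at -1.84 ± 0.37. *Matn2* was at 106 ± 51.3 CPM (SD, n = 3) in controls, 323 ± 148 CPM (SD, n = 5) in slow-growing and 692 ± 149 CPM (SD, n = 6) in fast-growing PNs. *Comp*, a tendon and cartilage protein, was at 15.8 ± 11.1, 2.63 ± 1.56 and 2.99 ± 1.51 CPM, so that it fell alike in both PN groups while *Thbs4* did not fall. In slow-growing PNs 0 were higher and 1 (*Comp*) lower, against 4.12% and 7.13% of all genes. In fast-growing PNs 5 were higher and 5 lower, against 14.8% and 16.7% of all genes. Between fast- and slow-growing PNs, where 0.466% of genes were called lower, the single call was *Smoc1*, a calcium-binding relative of *Sparc*, which was lower in fast-growing PNs by -2.44 ± 0.39 (edgeR adjusted p = 0.0317), at 2.90 ± 1.13 CPM against 15.7 ± 8.89 CPM. It was named after its value was seen. The median log2 fold change of the list in fast-growing PNs was 0.21, against 1.79 for the 10 genes.

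Of 22 receptors of these proteins, all tested, 4 were higher and 1 lower in PNs, against 12.9% and 13.4% of all genes. In fast-growing PNs 8 were higher and 3 lower, against 14.8% and 16.7% of all genes. Among the called receptors the highest rises in PNs were *Itgb8* at 2.19 ± 0.53 (edgeR adjusted p = 0.00819), *Ptprz1*, a phosphatase receptor of tenascins, at 1.96 ± 0.47, and *Itgav* at 1.34 ± 0.41. *Sdc4* was at 1.47 ± 0.58 but was not called (edgeR adjusted p = 0.0758). *Itgav* and *Itgb8* encode the subunits of an integrin that binds latent TGF-beta, and *Itgav* is also a subunit of the periostin receptors. The fall was *Itgb6*, at -2.39 ± 0.55 (edgeR adjusted p = 0.00567). In fast-growing PNs *Itgav* was at 371 ± 115 CPM against 114 ± 20.1 CPM in controls, and *Ptprz1* was at 164 ± 10.8 against 32.3 ± 17.3 CPM. Slow-growing PNs lay between, at 197 ± 67.7 and 83.4 ± 39.4 CPM. The 3 lower receptors in fast-growing PNs were *Itgb6*, *Cd36* and *Itga8*. *Cd36*, the receptor of thrombospondins 1 and 2 that fat and muscle also express, fell from 508 ± 35.4 to 42.6 ± 30.6 CPM (log2 fold change -3.65 ± 0.49, edgeR adjusted p = 0.000589), and *Itga8* had a log2 fold change of -3.58 ± 0.31, both named after their values were seen. In slow-growing PNs 0 receptors were higher and 1 (*Itgb6*) lower, against 4.12% and 7.13% of all genes. Between fast- and slow-growing PNs 1 was higher, where 0.802% of all genes were called higher. It was the syndecan *Sdc1*, by 1.03 ± 0.20 (edgeR adjusted p = 0.0449), which was also named after its value was seen.

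Of 19 genes for hyaluronan synthases, hyaluronan-binding proteins and versican-cleaving proteases, 18 were tested in PNs, with 2 higher and 3 lower, close to the 12.9% and 13.4% of all genes, so the counts set nothing apart in this list. *Adamts20*, a protease that cleaves versican, was higher by 1.47 ± 0.46 (edgeR adjusted p = 0.0289), and *Hmmr*, a hyaluronan receptor also linked to mitosis, by 0.75 ± 0.26. *Lyve1*, the hyaluronan receptor of lymphatic vessels and some macrophages, was lower by -1.88 ± 0.66, *Ncan* (neurocan) by -1.60 ± 0.49 and *Has1* by -0.93 ± 0.30. In fast-growing PNs 2 were higher and 3 lower, against 14.8% and 16.7% of all genes. In slow-growing PNs 0 were called by edgeR, where 4.12% of all genes were higher and 7.13% lower, with 5 at an unadjusted p under 0.05. Between the PN groups 0 were called by edgeR, where 0.802% of all genes were higher and 0.466% lower, with 3 at an unadjusted p under 0.05. The median log2 fold change of this list in fast-growing PNs was 0.0456, with members on both sides of 0.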

How the data were processed

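Total RNA of control DRGs/nerves and PNs was measured by bulk RNA-seq after amplification with the Ovation RNA-Seq System v2. Per the submitters' processing notes and the study's methods, the authors called bases with CASAVA 1.4, aligned reads to mm10 with TopHat2 2.0.9 and counted them per gene with featureCounts 1.5.2, and the deposited values used here are raw counts. A table of log2 TMM values that the authors made with edgeR 3.16.5 was not used here. The strand setting of the counting is not given in the sources used here. Groups came from the sample labels, 0 count columns lacked a sample, and the labels do not say whether the 3 controls came from separate animals.

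The counts were tested with edgeR 4.0.16 (filterByExpr, TMM, quasi-likelihood test, Benjamini-Hochberg over all genes tested, called at an adjusted p under 0.05), fitted on the libraries of each of 4 comparisons without covariates, since the labels give neither sex nor batch. The SE is the log2 fold change divided by the square root of the F statistic. The script was tested on simulated counts. Counts of 9596773 to 17594164 per library put 3 counts at 0.167 to 0.313 CPM, and all 10 genes lay above this in every library. Alternatives were median-ratio (RLE) factors, DESeq2 1.42.0, limma-voom (limma 3.58.1), no filter, 1 fit of all 14 libraries, removal of a trend on transcript length and GC content, marker scores (mean log2(CPM + 1)) of muscle and fat as covariates, and each library left out in turn.

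The 10 genes, the marker lists and the partner lists were chosen with earlier results of these data known. All 10 genes are named, with *Nf1*, and from each partner list the called genes with the 3 largest rises and 3 largest falls in PNs versus controls. For likeness, the 5 genes with the highest Pearson r of log2 CPM (prior count 2) are named. Positions and transcript lengths came from GENCODE M21 (GRCm38), which matched 22750 of 24062 symbols directly and 943 through an older symbol. A further gene of the SC marker list is not reported here, and the SC sums leave it out.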

Additional observations from a re-analysis of the deposited data

Results flagged for a closer look

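In groups of 5 or 6 PNs, a library was marked where its gap to the nearest other library, divided by the range of the group, passed Dixon's 95% critical value. The gaps were taken on CPM and not on log2 CPM, where high values stand out less. Of 20 such tests over the 10 genes, 7 did. Chance gives about 1 in 20 only for normally distributed values, which was not checked for CPM, and the 10 genes are not independent of each other. The 7 marks therefore cannot be set against that rate. All 7 were highest values and came from 2 libraries.

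Slow-growing PN 1198A stood apart for *Postn* (464.6 CPM, the other 4 at 23.1 to 136.5), *Thbs1* (165.4 CPM, others 16.8 to 54.7) and *Thbs2* (235.5 CPM, others 11.7 to 34.9). Fast-growing PN 1191 stood apart for *Postn* (2206 CPM, the other 5 at 689.6 to 1050), *Thbs2* (640 CPM, others 181.1 to 315.9), *Thbs3* (28.2 CPM, others 9.5 to 14.8) and *Sparc* (6419 CPM, others 4084 to 4933). Library 1191 also had the fewest counts of sensory neuron markers, at 22.3 CPM. Without it, 6 of the 10 genes were called in fast-growing PNs against controls.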

How the results depend on the processing

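In fast-growing PNs against controls, 6 genes were called, and 5 or 6 in 6 of the 7 other settings. With muscle and fat scores as covariates 0 were called, as were 0 of 16037 genes, and these scores differ between the groups. Leaving out 1 library gave 4 to 6. Over all PNs, 3 were called, 2 to 4 in 6 settings and 0 with muscle and fat scores as covariates, where *Thbs2* reversed to -0.46 and the uncalled *Postn*, *Fn1*, *Thbs1* and *Tnc* turned negative too, and leaving out 1 library gave 0 to 5. In slow-growing PNs, 0 were called, 1 with DESeq2, 1 in 1 fit of all 14 libraries, 0 to 1 with 1 library left out, and 1 with slow-growing PNs 1198A and 1203 both left out. Between the PN groups, 0 were called, 5 with DESeq2, 1 in 1 fit of all 14 libraries, 0 to 5 with 1 library left out, and 4 with 1198A and 1203 both left out. The causes were not tested. No paired analysis was possible because the labels give no shared replicate numbers. With 3 controls, 2 of which decide the counts over all PNs, and single slow-growing PNs that decide those between PN groups, a gene that was not called is not shown to be unchanged.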
